A study of Setaria viridis with 26 samples.

Results

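The orange module is a group of 82 genes of green millet (*Setaria viridis*), out of 25298 genes in the deposited node list of a co-expression network of inflorescence primordia. Its members were selected on the module label that the authors gave to each gene, so the correlations that made the label also made the edge weights described here. All weights within the module are therefore a description, with no test. The series holds 24 RNA-seq samples from pools of hand-dissected inflorescence primordia of cultivar A10.1, with 4 replicates of each group, and 2 DNA samples from young *ful2* seedlings. The *ful2* mutant was sampled at 9 to 10, 15, and 21 days after sowing (DAS), and wild type at 8 to 9, 10 to 11, and 17 DAS. Only wild-type samples entered the network, together with wild-type samples of an earlier study of the same cultivar, so that the weights describe normal development and hold no comparison with *ful2*.

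A co-expression module gathers genes whose transcript levels go up and down together across samples. Genes of a module can share a cell type, a stage, or a regulator, and co-expression alone does not say which. The network pools samples of this and an earlier study, and any difference between the studies was not separated from these. During the stages sampled, the grass shoot apex turns from a leaf-forming into a reproductive meristem, then forms branches, spikelets, and bristles. MADS-box transcription factors of the APETALA1/FRUITFULL group and phosphatidylethanolamine-binding proteins of the FT and TFL1 type are known regulators of this change in grasses.

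Each edge weight is a topological overlap, which grows when a pair of genes varies together and has many co-varying partners in common. Listed weights ran from 0.02 to 0.393 (median 0.0412), and a pair that is not listed has a weight below about 0.02. A weight is 1 value over all network samples and has no replicate error, so that close ranks cannot be separated. Neither the levels of the genes in single samples nor the depth of those samples was analysed here. All 82 orange genes carried Gene Ontology (GO) terms, and 38 had a reciprocal best hit in a reference proteome. Protein names below come from those hits, from domain matches, or from the study's annotation, and no function was measured in *S. viridis*.

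The orange module was the most loosely connected of the 26 modules. Of its 3321 gene pairs, 1088 had a listed edge (32.8%). The next lowest share was 40% in red, and the highest was 85.3% in pink. Without the 9-gene block described below, orange also had 40%. Over the whole network, 13.6% of the possible pairs were listed. The median weight of the orange edges was 0.0304, with quartiles of 0.0244 and 0.0395, and this was also the lowest median of any module. Orange was small but not the smallest module, and darkorange, with 70 genes, had 74.9% of its pairs listed.

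The 82 genes fell into a small, tightly joined block of 9 genes and a loose set of 73 genes. The split was read from the weights, after the values were seen. With a minimum of 0.04, which is 2 times the lowest weight, 259 orange edges remained. They joined 56 genes in a first component and 9 genes in a second, and left 17 genes single. All 36 pairs of the 9 genes were listed, and their weights had a median of 0.141 and a range from 0.0644 to 0.201. Among the other 73 genes, 1051 of 2628 pairs were listed (40%), and their weights had a median of 0.0299 and reached 0.0786. Between both sets, 1 of 657 possible pairs was listed, with a weight of 0.0225. At the same minimum weight, 10 further modules also had more than 1 component, but the second one was smaller relative to the module. It held 9 of 82 genes (11%) in orange, 4 of 70 (5.71%) in darkorange, and 10 of 503 (1.99%) in lightcyan. The single genes made up 20.7% of orange, and the next highest share was 10.8% in midnightblue.

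**Figure D1:**
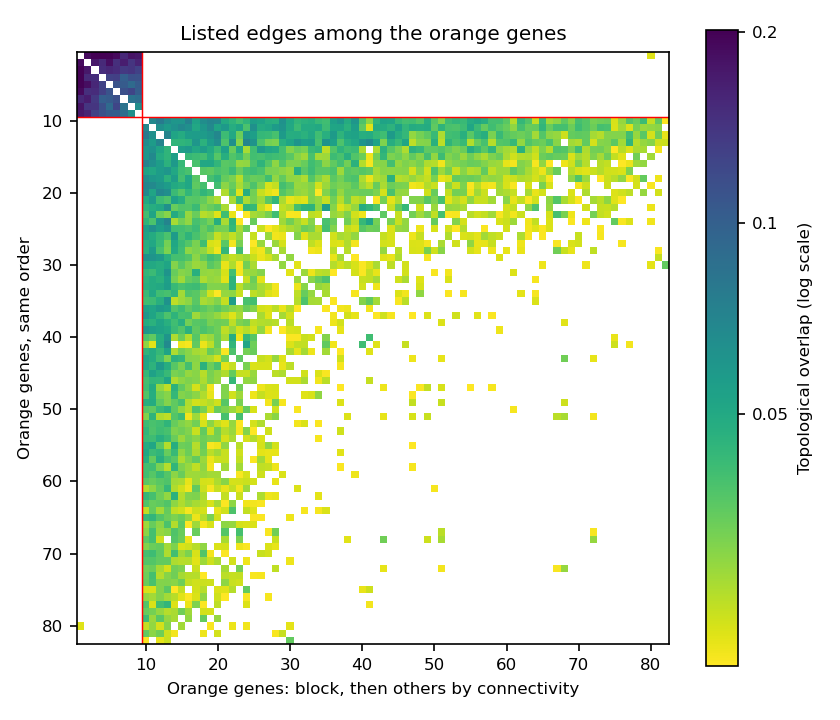
Topological overlap of every pair of orange genes, on a log color scale, with unlisted pairs in white. Rows and columns hold the 9-gene block first, inside the red lines, and then the other 73 genes from the highest to the lowest intramodular connectivity. The block is filled with weights from 0.0644 to 0.201 and shares 1 pale cell with the rest, where edges gather along the most connected genes.

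Sevir.9G442100 is a reciprocal best hit of the alpha subunit of translation initiation factor eIF2, which brings the initiator tRNA to the ribosome. It held the heaviest orange edge, with a weight of 0.201, to Sevir.6G029600, a GTP-binding protein whose homologs in other organisms bind ribosomes. Its next edges had weights of 0.199 to Sevir.5G208700, a GTPase of the developmentally regulated (DRG) family, and 0.198 to Sevir.2G401000. Sevir.2G401000 hits Arabidopsis AGD2, an aminotransferase of lysine synthesis. Sevir.9G430300, an adenylosuccinate lyase of purine synthesis, had a weight of 0.191 to the eIF2 alpha gene, and Sevir.5G298100, a porin of the type found in the outer mitochondrial membrane, had 0.189. The porin gene in turn was joined to the DRG GTPase gene at 0.185 and to the aminotransferase gene at 0.173.

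The remaining genes of the block were Sevir.1G168700, Sevir.2G184700, and Sevir.8G084600. Sevir.1G168700 has an Arabidopsis hit to which no name was given in the sources used, and its edge to the eIF2 alpha gene was 0.178. Sevir.8G084600 belongs by its family match to subunit 11 of the CCR4-NOT complex, which shortens mRNA tails, and its heaviest edges were 0.173 to the eIF2 alpha gene and 0.16 to the porin gene. Sevir.2G184700 hits Arabidopsis SLOW WALKER2, a nucleolar protein of ribosome assembly, and its heaviest edge was 0.167 to the porin gene. The 10 heaviest edges of the module were all within the block, and 7 of them led to the eIF2 alpha gene.

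All 9 genes of the block had more weight to another module than to orange. For each gene, the weights of its listed edges to a module were summed and divided by the number of possible partners there, with unlisted pairs counted as 0. The eIF2 alpha gene had a mean weight of 0.0186 to orange, 0.118 to pink, and 0.101 to purple. For the 9 genes, the mean weight to pink was 4.26 to 6.37 times that to orange. The mean to orange counts the other 73 orange genes, to which the block had 1 listed edge. Over listed orange edges alone, the means of the 9 genes were 0.117 to 0.167. Nearly all of these edges lie within the block, which was chosen by its heavy edges. The means to pink count unlisted pairs as 0, so the values over listed edges alone cannot be set against them. As a set they had listed edges to 90% of the possible pairs with pink genes and to 84.2% with purple genes. A typical pink gene had a mean weight of 0.0775 to its own module, and 4 of the 9 orange genes stood below this value. The eIF2 alpha gene was above 80.8% of the pink genes, the highest share of the 9, and the lowest share was 24.3%, for Sevir.2G184700.

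The genes of the block had more listed edges in the network as a whole than the other orange genes. This is tied in part to their choice by heavy weights, which grow with the number of shared partners. Its genes had 4010 to 6898 listed edges each, with a median of 5249, of which 0.154% led to orange genes. The other 73 genes had 188 to 3243 edges, with a median of 1190, of which 2.3% led to orange genes. Orange genes were 82 of the 25298 network genes. The edge counts of the sets did not overlap, but the share of all network genes with as many edges as the block was not counted. Over all network genes, the median was 3069 edges and the highest count 9327.

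**Figure D2:**
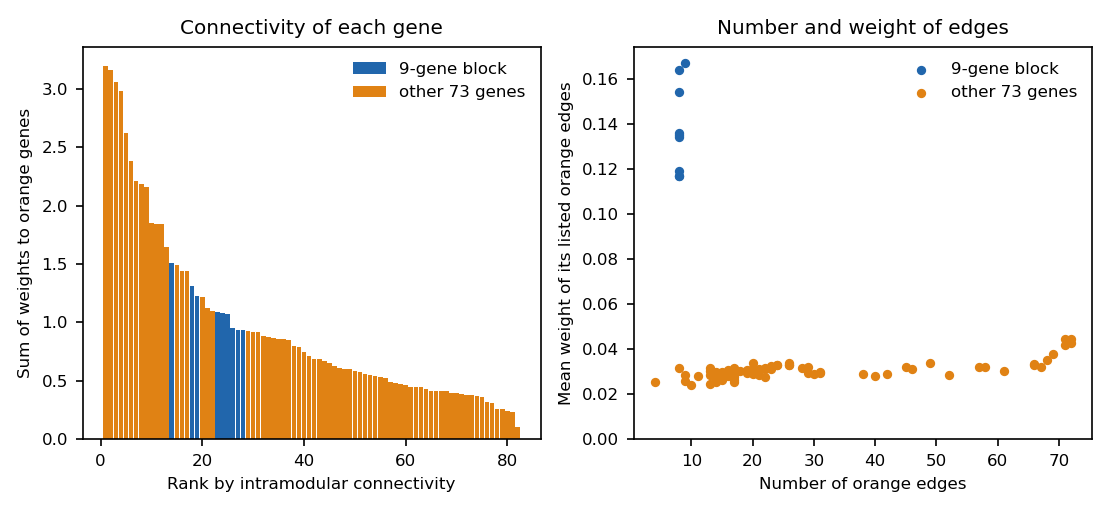
Left, sum of weights to orange genes (intramodular connectivity) for each of the 82 genes, by rank, and right, the number of orange edges of each gene against their mean weight. Blue marks the 9-gene block and orange the other 73 genes. The block genes have 8 or 9 edges of mean weight 0.117 to 0.167, whereas the most connected of the other genes reach 72 edges of mean weight under 0.05.

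Within the loose set of 73 genes, the edges were concentrated on a few highly connected genes. Intramodular connectivity, the sum of the weights to orange genes, was highest for Sevir.4G207200 (3.2, with 72 edges), a peptidase of family S28 that is annotated as a serine carboxypeptidase. Next was Sevir.4G098100 (3.16, with 71 edges), a transporter of the amino acid transporter family in Arabidopsis. Sevir.9G003000 followed (3.06, with 72 edges), a hit of Arabidopsis SIGMA FACTOR 6, which guides the plastid-encoded RNA polymerase to its promoters. Sevir.2G222500 (2.98, with 71 edges) hits an Arabidopsis protein of the pentatricopeptide repeat type. These 4 genes were linked to 99.3% of their possible partners among the other 69 genes of the set. Their connectivities are close together, and no spread is known by which to separate them.

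Ranks 5 to 10 were held by Sevir.9G419601 (2.62), Sevir.9G003300 (2.38), Sevir.7G075600 (2.21), Sevir.7G324801 (2.19), Sevir.4G104900 (2.16), and Sevir.1G129100 (1.85). Sevir.7G324801 is annotated with phosphoglycerate mutase activity. Sevir.1G129100 hits Arabidopsis SOS3, a calcium sensor of the salt response. The 10 most connected genes were all joined to each other, at 45 of 45 pairs, and to 93.7% of the possible pairs with the remaining 63 genes. These shares, like the 99.3% of the first 4 genes, follow in part from the ranking, which uses the same weights. Among the remaining 63 genes, 416 of 1953 pairs were listed (21.3%), against 13.6% over the whole network. The most connected 10% of the module (8 genes) took part in 48.4% of its edges. For the most connected 10% of each module, this was the highest share of the 26 modules, and the next was 37.9% in red and the lowest 22% in pink.

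The heaviest edge of the loose set, with a weight of 0.0786, joined the peptidase gene Sevir.4G207200 and the sigma factor gene Sevir.9G003000. The next had a weight of 0.0721 and joined the same peptidase gene to Sevir.7G075600. Sevir.2G222500 was joined at 0.0711 to Sevir.3G355300, a gene for an AAA-type ATPase, and at 0.0707 to the sigma factor gene. The edge of the peptidase gene to the calcium sensor gene was 0.0705. Each of these edges was heavier than the overall network median and lighter than most edges of the block.

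The least connected gene was Sevir.4G291700, a protein kinase with 4 orange edges and a sum of 0.101. It was followed by Sevir.7G207500 (0.232, with 9 edges), Sevir.5G333500 (0.242, with 10 edges), Sevir.4G175400 (0.254, with 8 edges), and Sevir.2G444300 (0.256, with 9 edges). Sevir.5G333500, annotated with formamidase activity, carried the single edge of the loose set to the eIF2 alpha gene. Sevir.4G175400 is a family 1 glycosyl hydrolase of the beta-glucosidase type, and Sevir.2G444300 is a class III peroxidase. No orange gene lacked an orange edge.

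Among all 82 orange genes, 52 (63.4%) had a higher mean weight to another module than to orange. Over all 25298 network genes this share was 32.6%, and orange ranked 5 of 26 modules, behind lightgreen, purple, tan, and green. The 52 genes were the 9 block genes and 43 of the other 73. For the 73 genes the ratio of the closest other module to orange had a median of 1.16 and a range from 0.498 to 6.07. Of the 43 genes, 21 were closest to greenyellow, 10 to magenta, 4 to darkred, 3 to salmon, 3 to pink, and 2 to green. The 13 most connected genes of the module all had a higher mean weight to orange. The same weights set their rank, so that this follows in part from the ranking. The gene Sevir.9G318200, with transmembrane transport among its terms, had a mean weight of 0.00507 to orange and 0.0235 to greenyellow. Sevir.5G333500 had 0.00299 to orange and 0.0182 to pink, the highest ratio in the loose set.

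**Figure D3:**
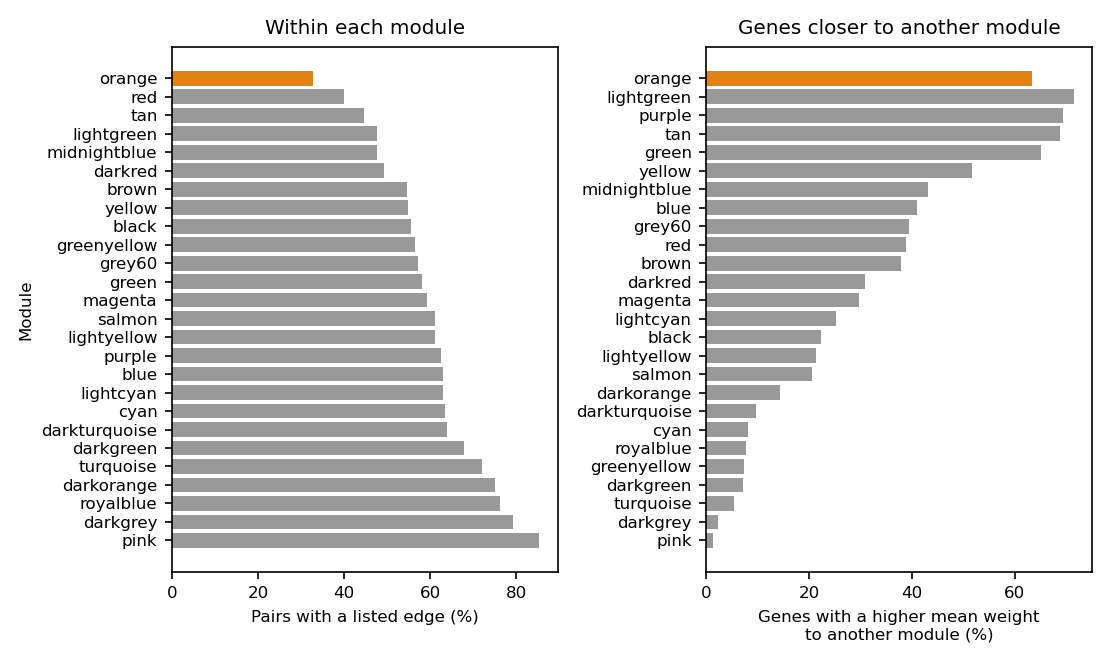
Left, share of gene pairs with a listed edge within each of the 26 modules, and right, share of the genes of each module with a higher mean weight to another module than to their own. Orange is drawn first in both panels and the other modules are sorted. Orange has 32.8% of its pairs listed, below all others, and 63.4% of its genes are closer to another module.

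**Figure D4:**
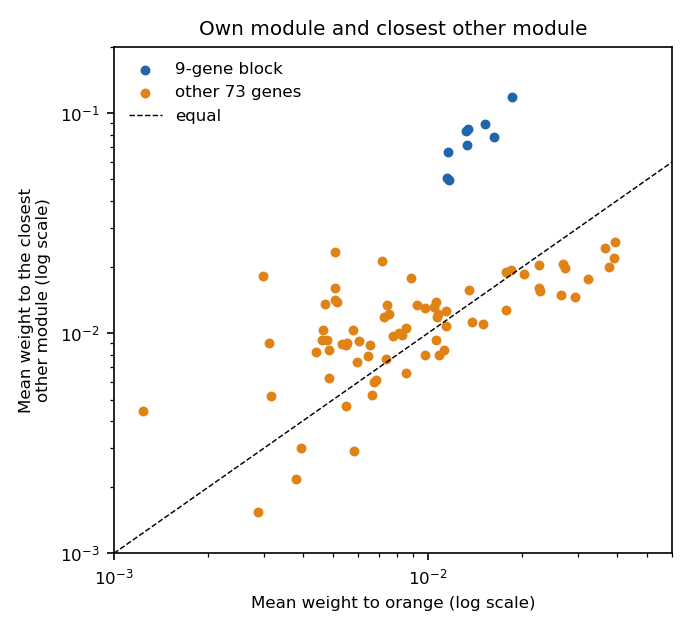
Mean weight of each orange gene to orange (horizontal) and to its closest other module (vertical), both on log scales, with unlisted pairs counted as 0. The dashed line marks equal values, blue the 9-gene block, and orange the other 73 genes. All block genes lie 4.26 to 6.37 times above equality, and the other genes lie on both sides of the line.

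The neighbouring modules of the whole of orange were greenyellow (20.8% of the possible pairs listed), green (20.1%), magenta (19.7%), and pink (19%). Their order depended on the block. Without the 9 genes, greenyellow reached 23.3%, magenta 18.7%, green 16.3%, darkred 15.5%, salmon 13.6%, and pink 10.2%. When weights were averaged over all possible pairs of the complete module, pink was first, with 0.0111, against 0.00713 for green, 0.00692 for magenta, and 0.00679 for greenyellow. Of the possible pairs of all orange genes, 0.0956% were listed with brown, which holds *SvFul2*, 0.0883% with turquoise, and 0.00196% with cyan, the lowest shares. The lowest shares also differed between both sets, with 0 edges of the block to lightgreen, turquoise, and yellow, and 0 edges of the other 73 genes to cyan, darkorange, grey60, lightyellow, and royalblue. Opposite and unrelated expression both lead to low weights in a signed network and cannot be told apart here.

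A list of 28 genes that the study names by identifier was looked up among the partners of orange. All 28 were in the network and none was orange. Of the 25216 genes outside orange, 5779 had a listed edge to the loose set. Edges to the block are not in this count, and the eIF2 alpha gene of the block alone had 6898 edges. It is therefore not a like background for edges to any orange gene, and that share over all genes was not counted. Of the 28 named genes, 17 had no listed edge to any orange gene, among them *SvFul2*, *SvFul1*, and *SvFul3*. The fourth member of this MADS-box group, *SvFul4* (Sevir.3G374401, in magenta), had edges to 74 of the 82 orange genes, 3 of them in the block and 71 in the loose set. This gene appears under a pair of neighbouring identifiers in the study. Values are given for Sevir.3G374401. Its weights were 0.122 to the peptidase gene Sevir.4G207200, 0.118 to the transporter gene Sevir.4G098100, 0.108 to the calcium sensor gene Sevir.1G129100, and 0.105 to Sevir.7G075600. For Sevir.4G207200, the most connected orange gene, no other edge in the network was heavier than the edge to *SvFul4*.

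Summed over the loose set, the weights of *SvFul4* came to 4.07, higher than the connectivity of any orange gene. By this sum it ranked 2 of 25216 genes outside orange, after Sevir.1G164332 (4.11, also in magenta). Such closeness was not particular to *SvFul4*, since 342 genes outside orange had a larger sum than the orange gene of rank 10. The orange edges of *SvFul4* were 1.32% of its 5627 edges. Its mean weight was 0.0506 to orange and 0.0618 to its own module, magenta. The edges have no direction and do not show that *SvFul4* acts on these genes.

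The other named genes with orange edges were in magenta, pink, red, and blue. The bHLH gene Sevir.2G248500 had 52 orange edges, with a highest weight of 0.0699 to Sevir.7G075600. *SvMads51* had 39 edges, none of them to the block, with a highest weight of 0.0469. *SvSid1* had 23 edges, also none to the block, and a highest weight of 0.0402. For comparison, 28% of all possible pairs between the block and magenta were listed. For the other 73 genes, the shares were 18.7% with magenta, 10.2% with pink, and 6.22% with red. *SvYab15*, also in magenta, had 28 edges, 7 of them to the block, *milkweed pod1*, in red, had 17, and *SvIds1* and *SvD3* had 3 each. *SvZcn2* (Sevir.1G183200), a gene of the TFL1 type in pink, had 48 edges, which included all 9 genes of the block, where 90% of all possible pairs with pink genes were listed. Its edge to the eIF2 alpha gene, with a weight of 0.129, was the heaviest between orange and any of the named genes. The eIF2 alpha gene had a mean weight of 0.118 over all pink genes, and its heaviest pink edge was 0.244. The 7 orange edges of *SvFd1* and the 8 of *Roc5*, both in blue, all led to the block. Of all possible pairs with blue genes, 61.9% were listed for the block and 0.639% for the other 73 genes.

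Sevir.7G334800 encodes a phosphatidylethanolamine-binding protein, the family of the FT and TFL1 flowering regulators. The study's annotation gives its closest Arabidopsis gene as the *CENTRORADIALIS* homolog ATC and its rice hit as RCN1. Both belong to the TFL1 type, which in rice delays the phase change and adds panicle branches when overexpressed. It ranked 12 of 82 by connectivity (1.84, with 61 edges), and its heaviest orange edge was 0.0576 to the transporter gene Sevir.4G098100. Its mean weight was 0.0227 to orange and 0.0204 to greenyellow, the closest other module. It had 1874 edges in all, of which 527 led to green, 418 to greenyellow, 266 to yellow, 258 to salmon, and 155 to magenta. Its heaviest edge in the network was 0.101, to Sevir.5G297700 in greenyellow. It was joined to *SvFul4* at 0.0546, and no edge to *SvZcn2* or *SvMads51* was listed. Over the 9 terms of the flowering and meristem list, 4 orange genes (4.88%) carried a term, against 6.37% of network genes. Flower development was on 2 of them (2.44%), Sevir.7G334800 and the M28 peptidase gene Sevir.5G314800, against 0.763% of network genes. Embryo development was on the other 2, Sevir.3G010000 and Sevir.4G104900, and the remaining 7 terms, among them the vegetative to reproductive phase transition and meristem initiation, were on 0 orange genes.

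Over the transcription list, 7 orange genes (8.54%) carried a term, against 10.9% of network genes, a difference that was not tested. DNA-binding transcription factor activity was assigned to 2 genes (2.44%), against 3.74% of network genes. These were the sigma factor gene Sevir.9G003000 and Sevir.7G207500, a bHLH gene that hits Arabidopsis ENHANCER OF GLABRA3, a regulator of epidermal cell fate and anthocyanin synthesis. The sigma factor gene stood at rank 3 and the bHLH gene at rank 81. The weights to *SvFul4* were 0.0863 for the sigma factor gene and 0.0339 for the bHLH gene. The term regulation of transcription was on 6 genes (7.32%), against 9.42% of network genes. They were Sevir.1G168700 and Sevir.2G184700 of the block, Sevir.4G243900, the NB-ARC gene Sevir.5G088900, the bHLH gene Sevir.7G207500, and Sevir.9G044690. Sevir.9G044690 hits the plastid gene for the large subunit of Rubisco, an enzyme of carbon fixation, although its locus is on chromosome 9. How similar this locus is to the plastid gene, and whether reads of the plastid gene were counted here, was not tested, so that its place in the module is uncertain.

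The 73 terms of 12 lists (transcription, flowering, light, hormones, stress, plastid, compartments, translation, chromatin, cell wall, signalling, and metabolism) were counted as assigned. Of these, 22 were on no orange gene, 23 were on 3 or more, and 11 of the 23 had at least 1.5 times the share of network genes. Counts of this size were not tested, and a few genes more or fewer would change them. In the transport and metabolism list, 20 orange genes (24.4%) carried a term, against 14.3% of network genes, and its 5 terms differed. Transport (3.66%, against 3.62%) and transmembrane transport (1.22%, against 1.47%) were near the background, and lipid metabolic process was on 0 orange genes, against 1.39%. Oxidation-reduction process was on 11 genes (13.4%), against 6.87% of network genes, and none of the 11 was in the block. They included Sevir.2G240000, a hit of the Arabidopsis cytochrome P450 CYP707A4 that breaks down abscisic acid, 2 further P450 genes (Sevir.5G010000 and Sevir.9G188900), the peroxidase gene Sevir.2G444300, and the aldo/keto reductase gene Sevir.5G385900. Heme binding, a term added after its value was seen, was on 5 genes (6.1%), against 1.38% of network genes. They were the P450 and peroxidase genes and Sevir.4G104900.

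Terms of carbohydrate metabolism and protein breakdown were the next groups. Carbohydrate metabolic process was on 5 genes (6.1%), against 1.67% of network genes, with the beta-glucosidase gene Sevir.4G175400 and the class IV chitinase gene Sevir.7G158700 among them. Proteolysis was on 5 genes (6.1%), against 3.02% of network genes. Serine-type carboxypeptidase activity, also a term added after its value was seen, was on 3 genes (3.66%), against 0.17% of network genes. These were the most connected gene, Sevir.4G207200, with Sevir.7G057000 and Sevir.4G031700, which hits Arabidopsis SOL1. SOL1 is a zinc carboxypeptidase by its family, so that the term does not describe its chemistry. The 3 genes had ranks of 1, 68, and 13 by connectivity.

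Extracellular region was on 7 genes (8.54%), against 4.04% of network genes, and vacuole on 6 genes (7.32%), against 2.96%. Neither term was on a gene of the block. Over the plastid list, 17 orange genes (20.7%) carried a term, against 15.9% of network genes. Chloroplast envelope was on 5 genes (6.1%), against 2.47% of network genes, chloroplast stroma on 5 (6.1%), against 3.21%, and chloroplast on 7 (8.54%), against 10.2%. Response to cadmium ion was on 5 genes (6.1%), against 3.16% of network genes. Cytosol was on 15 genes (18.3%), against 11.2%, and nucleus on 20 genes (24.4%), against 23.7%, close to the background.

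Translation was on 2 orange genes (2.44%), none of them in the block, against 3.03% of network genes. Translation initiation factor activity, a term added after its value was seen, was on 3 genes (3.66%), against 0.838% of network genes, which were the eIF2 alpha gene of the block, the eIF6 gene Sevir.3G010000, and Sevir.9G572700, a gene with the domain of eIF1A. The last pair had no listed edge to the block. Protein folding was on 3 genes (3.66%), against 1.4% of network genes, among them Sevir.1G099900, a gene with the peptide-binding domain of HSP40 chaperones. Genes of the fixed lists for hormones (6 genes, 7.32%, against 8.03%) and stress (15 genes, 18.3%, against 15.3%) were near the background.

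**Figure D5:**
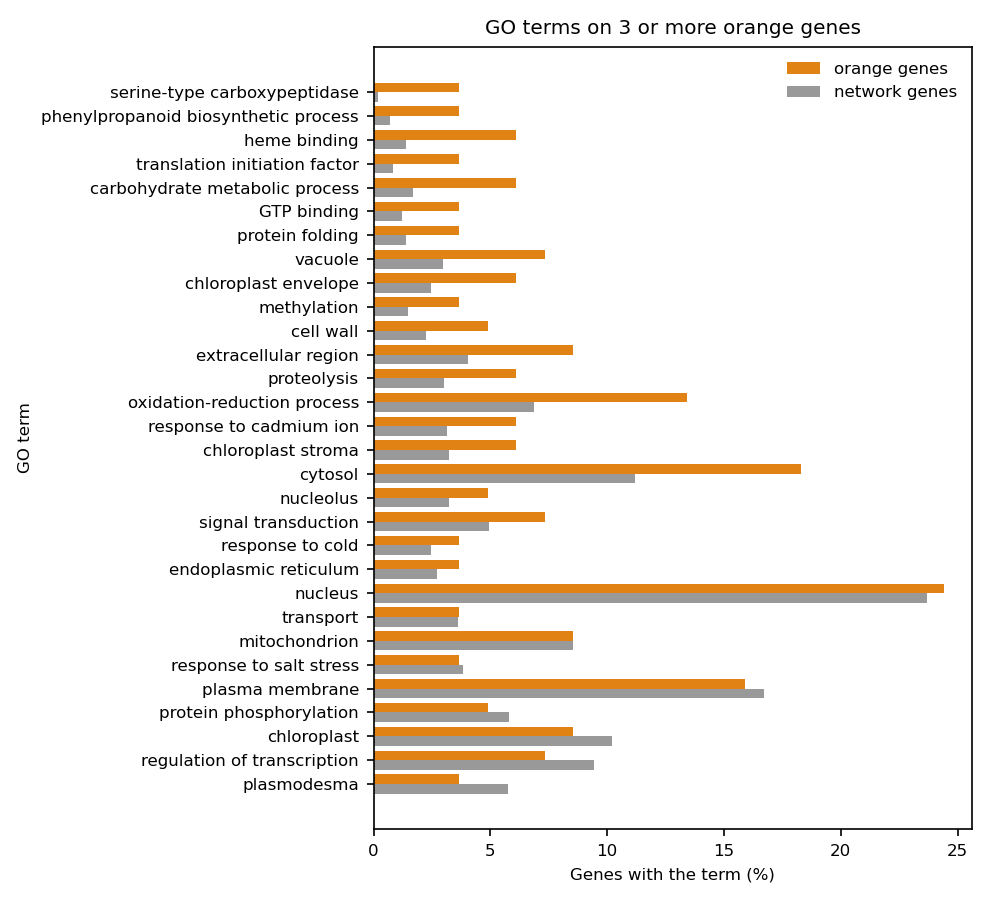
Share of the 82 orange genes (orange) and of the 25298 annotated network genes (grey) that carry each GO term found on 3 or more orange genes, sorted by the ratio of both shares. The upper terms, from serine-type carboxypeptidase (3.66% against 0.17%) to oxidation-reduction process (13.4% against 6.87%), are more frequent in orange, and nucleus (24.4% against 23.7%) is level. Terms added after their values were seen, among them serine-type carboxypeptidase and heme binding, are drawn with the others.

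The orange genes were spread over all 9 chromosomes. Chromosome 9 held 18 (22%), against 18% of network genes, and chromosome 3 held 4 (4.88%), against 12.2%. In the locus order of network genes, no orange gene was next to another orange gene. Over all modules, 18.2% of genes were next to a gene of their own module, a share taken over modules of 70 to 3909 genes. Large modules raise this share, so that it is not a background for a module of 82 genes. The closest pair was Sevir.9G003000 and Sevir.9G003300, the genes of rank 3 and 6, which were 3 places apart and joined by an edge of 0.0486. The genes of the block lay on chromosomes 1, 2, 5, 6, 8, and 9.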

How the data were processed

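The submitters' processing notes list cutadapt and Salmon 0.13.0. Per the methods, the authors estimated transcript levels with Salmon on version 2.1 primary transcripts and built a signed WGCNA network from biweight midcorrelations over wild-type samples, after they left out outlying ones. The values deposited for gene pairs are topological overlaps, a score, and those below about 0.02 are not listed, which lowers sums for genes with many weak edges. Other deposited values are labels, namely the module of a gene and the GO terms of the authors' annotation, of which 678 rows marked NOT were left out and no parent terms were added. The network and GO tables used here hold no columns for single samples (0 such columns), so no test was run. Genes and modules were counted as in the deposited node list, which is shorter than the set that the authors clustered.

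Edges, weights, components, and terms were counted with pyarrow 21.0.0, scipy 1.17.1, pandas 2.3.3, and numpy 2.4.6 in Python 3.11.15, and drawn with matplotlib 3.10.9 after the code was tested on simulated data. Members and lists were chosen with earlier results of these data known. Genes were named if they were annotated regulators, among the 10 most or 5 least connected, on the 10 heaviest edges, linked to genes that the study names, neighbours, or members of a term group. The terms translation initiation factor activity, heme binding, serine-type carboxypeptidase activity, GTP binding, phenylpropanoid biosynthetic process, methylation, and nucleolus and the edges within the loose set were chosen after their values were seen. Gene IDs had 0 matches in the RefSeq table, so no sequences are shown.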

Additional observations from a re-analysis of the deposited data

How the results depend on the processing

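The weights have no replicate error, the unlisted pairs are unknown, and GO terms are predictions. No paired analysis was possible because these tables hold no columns for single samples. With edges counted from 2 times the lowest weight, 7.8% of orange pairs were listed (32.8% with all edges), the median weight was 0.0488, 5 of the 10 most connected genes stayed among the 10, and greenyellow ranked 5 among the modules closest to orange, behind pink. With unlisted pairs set to the lowest weight, the median was 0.02. With weights summed over all possible pairs, greenyellow ranked 4. When edges to all modules were summed, Sevir.4G207200 ranked 11 and 1 of the 10 most connected genes stayed, since edges to orange are a small part of all edges. Within 5 places in the locus order, 2 orange genes had an orange neighbour, against 0 next to each other. Without the 9 genes of the block, a setting chosen after seeing the data, 40% of pairs were listed, level with red (40%), and greenyellow remained first. In that setting 38 of the remaining 73 genes were closer to another module, against 43 of them with the block counted. The number of GO terms at 1.5 times the network share was 11 or 12.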
